A study of Drosophila melanogaster with 2 samples.

Results

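The formin and Spire genes are the 7 Drosophila melanogaster genes capu, spir, DAAM, dia, Fhos, Frl and form3, out of 13945 protein-coding genes on the chromosome arms. They were chosen by family membership with the strong capu promoter peak already in view, so the presence and the height of their peaks are given as a description and were not tested. A peak was given to a gene when its summit, the position of highest signal in the peak, lay between 1000 bp upstream of the gene's first annotated start and the gene's end.

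The experiment was a chromatin immunoprecipitation with sequencing (ChIP-seq) of Onecut, which binds DNA through a single cut domain beside a homeodomain. The flies were of the strain onecut-GFP and made Onecut fused to enhanced green fluorescent protein (eGFP). Whole embryos of 0 to 24 hours were used, with an antibody against GFP, in 2 biological replicates that form 1 group, so no condition was compared with another. All embryonic stages and tissues were mixed, the bound protein was the tagged fusion, and a peak in few cells and a weaker peak in many cells cannot be told apart. The values used are peak lists on the dm6 build, with a signal per peak that is the authors' own value on a scale not given in the sources used here.

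The main list was the conservative one, which rests on both replicates and is cut at an irreproducible discovery rate (IDR) of 0.01. The IDR estimates how likely a peak is to belong to the part of the ranking that is not reproduced between 2 inputs. A low IDR therefore marks a peak that ranks high in both, and like ranks far down the lists do not give one. The main list held 6755 peaks, of which 6747 lay on the chromosome arms, and its median signal was 148.9. The thresholded list of replicate 1 held 5133 peaks and that of replicate 2 held 6023, drawn from 31012 and 38160 ranked peaks. Read depth is unknown, signals were compared only within a list, and rank 1 is the peak of highest signal in its list.

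Actin filaments start poorly by themselves, and cells use nucleators to begin them. Formins nucleate unbranched filaments through their FH2 domain and stay on the growing barbed end, and many are held inactive by contacts within the protein, whereas Spire proteins line up actin monomers along WH2 domains. In the fly, Cappuccino (capu) is a formin that works with Spire (spir) to build the actin mesh of the oocyte, Diaphanous (dia) acts in cytokinesis and in epithelia, and DAAM acts in tracheal tubes, axons and muscle.

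The DNA under the highest peaks is shown first, because the peaks of these genes differed in whether they held ATCGAT or ATTGAT, the 6-base cores that Onecut-family proteins are known to bind. Capitals mark these cores, which read ATCAAT where ATTGAT lies on the opposite strand. All stretches run 5′ to 3′ along the strand of the gene and come from the Release 6 assembly. For capu the stretch is chr2L:3896109-3896322 on the minus strand, which ends 1 base before an annotated start. For spir it is chr2L:20342106-20342135 on the plus strand, and for DAAM it is chrX:1321793-1321893 on the minus strand. For Fhos it is chr3L:8766139-8766239 on the plus strand, the strongest peak among these genes without a core. The dia stretch, chr2L:20760249-20760278, and the Frl stretch, chr3L:14055894-14055994, both on the plus strand, lie under peaks outside the main list that passed the threshold in the list made from pooled data.
capu: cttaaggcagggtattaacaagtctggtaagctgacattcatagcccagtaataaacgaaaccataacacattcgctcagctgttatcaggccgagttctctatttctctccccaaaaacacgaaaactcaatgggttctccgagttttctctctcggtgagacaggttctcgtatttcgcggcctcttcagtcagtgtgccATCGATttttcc
spir: tttcggactcggATCGATagcctccatgca
DAAM: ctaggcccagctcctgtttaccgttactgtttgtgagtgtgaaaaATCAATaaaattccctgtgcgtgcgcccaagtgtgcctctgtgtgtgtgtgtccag
Fhos: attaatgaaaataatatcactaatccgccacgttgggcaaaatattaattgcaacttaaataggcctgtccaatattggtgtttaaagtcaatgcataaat
dia: agccatccgtccATCGATtggatgcattcg
Frl: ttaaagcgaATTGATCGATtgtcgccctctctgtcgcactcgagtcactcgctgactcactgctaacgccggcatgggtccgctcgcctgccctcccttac

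Onecut peaks past the threshold lay at 5 of the 7 genes, namely capu, spir, DAAM, dia and Fhos, while Frl and form3 had none. Of all protein-coding genes, 31.3% had a summit by the same rule. The formin and Spire genes are long, with a median of 30215 bp for the 7 against 2166 bp for all protein-coding genes, and longer genes offer more positions for a summit. Among the 1991 genes at least as long as dia, the shortest of the 7, 65.7% had a summit, and among the 704 genes at least as long as form3 the share was 72.3%. Nothing is read from the 5 of 7, since the peaks were in view when the genes were chosen.

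The 5 genes held 12 summits in 11 peak intervals: 3 each at capu, spir and Fhos, 2 at DAAM and 1 at dia. The density was 0.575 summits per 10 kb of territory over the 7 genes, against 0.677 over all protein-coding genes. By gene it was 0.961 at capu, 0.917 at dia, 0.786 at spir, 0.651 at Fhos and 0.594 at DAAM. In height, 4 of the 7 (capu, DAAM, spir and Fhos) had a summit among the strongest 10% of the list, against 5.56% of all protein-coding genes. In the list of each replicate alone 3 of the 7 did. Fhos was outside in replicate 2, where 5.0% of all genes had such a summit, and spir in replicate 1, where 4.35% did. These shares of all genes are not matched for gene length, and the 7 genes are long. Nothing is read from the counts, since the capu peak was in view when the genes were chosen.

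**Figure D1:**
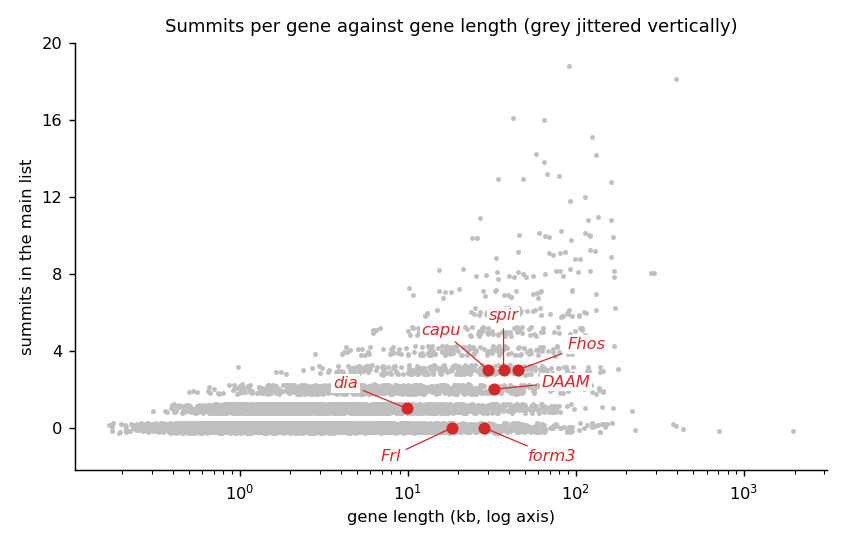
Number of summits in the main list (vertical axis) against gene length in kb (horizontal log axis) for all protein-coding genes, with the 7 formin and Spire genes in red and the others in grey, jittered vertically. The 7 genes hold 0 to 3 summits, within the spread of grey points of like length.

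The order by highest signal in the main list was capu at 2124, DAAM at 991.0, spir at 588.5, Fhos at 470.2 and dia at 145.9. These are ranks 13, 146, 436, 640 and 3474. The median highest signal of all protein-coding genes with a summit was 191.5, so that of dia lay below it and the other 4 above. The replicates gave capu the first place and DAAM a place above spir in both, while Fhos stood above spir in replicate 1 and below it in replicate 2.

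**Figure D2:**
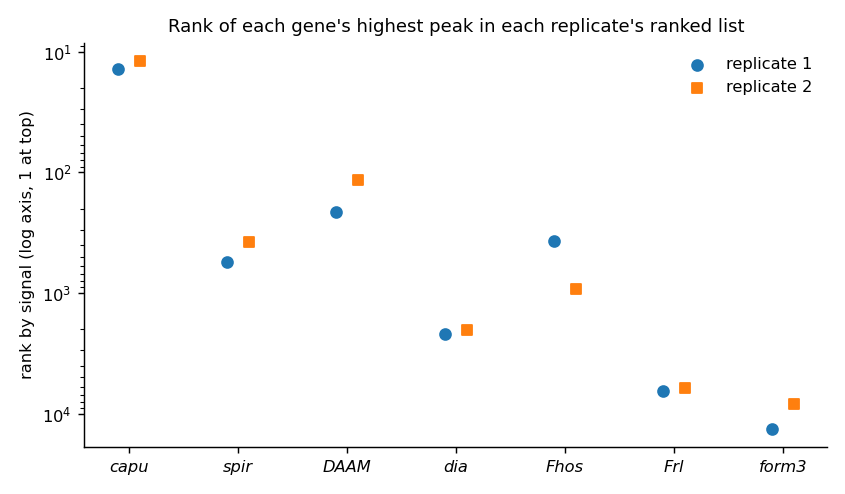
Rank by signal of the highest peak of each gene in the ranked list of replicate 1 (circles) and of replicate 2 (squares), on a log axis with rank 1 at the top. The capu peak is at ranks 14 and 12, and form3 is the lowest in both at 13311 and 8354. The highest peak was taken in each replicate separately, and at dia, Frl and form3 it was a different peak in each.

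capu (FBgn0000256) lies on the minus strand of 2L, from 3872646 to 3902860, with 9 annotated transcripts from 6 starts. Its main peak, 2L 3895875 to 3896322, had a signal of 2124, which is 14.3 times the median of the list, and an IDR of 1e-05, the lowest value the lists give. The same peak had a signal of 886.5 (rank 14) in replicate 1 and 1250 (rank 12) in replicate 2, with summits 0 and 3 bp from that of the main list. It was therefore among the highest peaks of both embryo collections.

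The summit of this peak, 3896119, lay 11 bp upstream of the second annotated start of capu. From that start runs 1 of the 9 transcripts (FBtr0077511), which codes for a protein of 1207 residues, and the position lies in an intron of the 3 transcripts that begin 6752 bp further upstream. The core ATCGAT shown in the capu stretch began 1 bp before the summit and was the only core in the interval. At the first start of capu, 3902860, no ranked peak lay within 500 bp in either replicate.

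Both other capu summits were weaker. The summit at 3896921, in the same intron and 813 bp upstream of the second start, had a signal of 199.7 (rank 2282), with 97.53 in replicate 1 and 106.9 in replicate 2, and no core within 50 bp. The summit at 3882430, 2363 bp upstream of the last start, had a signal of 83.26 (rank 6236) and an IDR of 0.00829, just inside the threshold. It was in neither replicate's thresholded list, where its ranked signals were 37.07 in replicate 1 and 43.89 in replicate 2.

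capu also held peaks just outside the threshold. A peak with its summit at 3888377, 447 bp downstream of the fifth start, had a signal of 78.5 and an IDR of 0.0101, and one at 3889348 had 83.85 with an IDR of 0.0170. Both passed in the list made from pooled data, whereas the summit at 3882430 did not, so these 3 low capu peaks depended on the list, while the main capu peak and the summit at 3896921 were in every list.

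spir (FBgn0003475), the partner of capu in the oocyte, lies on the plus strand of 2L from 20311219 to 20348386, with 10 transcripts from 2 starts. Its strongest peak, 20341973 to 20342291, had a signal of 588.5 (rank 436) in the main list, 225.8 (rank 550) in the thresholded list of replicate 1 and 359.5 (rank 377) in that of replicate 2. The summit, 20342119, lay 268 bp downstream of the second start. ATCGAT began 1 bp before the summit, the same offset as at capu.

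The second spir start serves 1 of the 10 transcripts (FBtr0081355), which codes for 625 residues, and the summit lies in its 5′ UTR and in an intron of 7 others. The remaining 9 transcripts begin at the first start. There the ranked list of both replicates had a peak of signal 58.68 (rank 10665) with its summit on the start itself, replicate 2 had one of 49.15, and replicate 1 had none within 500 bp. Nothing at the first start reached a thresholded list.

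The other spir summits form a pair in the first 4 kb of the gene, at 20314722 and 20314931, in peak intervals that overlap. Their signals were 122.5 (rank 4307) and 94.48 (rank 5670), and the first had ATTGAT beginning 6 bp before the summit while the second had no core. Replicate 2 had 1 thresholded peak there, with a signal of 102.6 and its summit 5 bp from the first of the pair. Replicate 1 had only a ranked peak of 50.27, 3 bp from the second of the pair and with an IDR of 0.468. In replicate 2, 2 ranked peaks overlapped each interval and only the highest was placed. Whether the replicates differ in the member they mark therefore cannot be told from these values.

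DAAM (FBgn0025641) is a formin of the X chromosome, on the minus strand from 1289713 to 1322362, with 6 transcripts from 4 starts. Its interval X 1321665 to 1322058 carried 2 summits. The higher, 1321843, had a signal of 991.0 (rank 146), with 358.9 (rank 214) in replicate 1 and 644.8 (rank 117) in replicate 2. It lay 519 bp downstream of the first start, in the first intron of the 2 transcripts that begin there, with ATTGAT on the opposite strand beginning 5 bp before the summit.

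The lower DAAM summit, 1322046, had a signal of 32.46 (rank 6668) and a -log10 q-value of 0.394, yet it carried the IDR of 1e-05 of the interval it shares. Over the whole list 1.36% of summits shared an interval with another. It lay 316 bp downstream of the DAAM start and 467 bp from the start of fs(1)N, a gene read in the opposite direction that is needed for the eggshell. The higher summit lay 670 bp from that fs(1)N start, so the peak lies near starts of both genes and cannot be given to DAAM alone.

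The other DAAM starts had little. The starts at 1308472 and 1304845 had ranked peaks of signal 43.95 and 41.33 that passed no threshold, and the last start, 1294687, had no ranked peak within 500 bp. At DAAM the start nearest to the high peak was thus the first, unlike at capu and spir. Its summit lay 519 bp away, outside the 500 bp limit, and a start of fs(1)N was also near.

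dia (FBgn0011202), the founding Diaphanous formin, is the shortest of the 7 at 9910 bp, on the plus strand of 2L from 20758144 to 20768053. Its summit in the main list, 20759306, had a signal of 145.9 (rank 3474) and lay between its 2 starts, 1162 bp downstream of the first and 994 bp upstream of the second. The signal was 92.37 (rank 2163) in replicate 1 and 62.95 (rank 4885) in replicate 2. No core lay within 50 bp.

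dia also had a higher peak outside the main list. With its summit at 20760254, 46 bp upstream of the second start, it had a signal of 185.9 (rank 2526 of 32412) in the ranked list of both replicates, but an IDR of 0.0243. In the thresholded list of replicate 1 the peak at this start had a signal of 59.09 (rank 3843), and in that of replicate 2 one of 124.3 (rank 2014), with summits 256 and 39 bp upstream of the start. Each replicate and the pooled list thus had a peak past the threshold within 500 bp of this start. Whether the replicates mark the same site cannot be told from these values. The ATCGAT shown in the dia stretch begins 7 bp after the summit at 20760254. The replicate 1 peak, as listed, ended at 20760221, before this core, and had no core within 50 bp of its summit. A listed end was not taken as a measured edge of binding. In the ranked list of replicate 1, 2 peaks overlapped the interval of the summit at 20760254, and only the highest was placed. The replicate 2 peak had a core within 50 bp of its summit. At the first dia start a ranked peak of 73.79 passed no threshold.

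Fhos (FBgn0266084), the fly FHOD-type formin, which acts in muscle sarcomeres, is the longest of the 7 at 45101 bp, on the plus strand of 3L from 8753619 to 8798719, with 9 transcripts. Its strongest summit, 8766189, had a signal of 470.2 (rank 640), with 277.4 (rank 372) in replicate 1 and 207.1 (rank 930) in replicate 2. It lay 253 bp upstream of the fourth start, from which 6 of the 9 transcripts run, coding for 1152 to 1509 residues. The long form of 2528 residues begins upstream, at the first and second starts, where no peak passed a threshold.

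The Fhos stretch shown holds neither core and is 69.3% A or T. The other Fhos summits lay in introns downstream of the fourth start: 8769303, with a signal of 106.5 (rank 5048) and ATTGAT beginning 10 bp after the summit, and 8773273, with 113.4 (rank 4710) and no core. The site at 8769303 had thresholded peaks in both replicates, of 46.41 and 61.9. The site at 8773273 had a thresholded peak of 72.02 in replicate 2 and only a ranked peak of 40.4 in replicate 1.

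Frl (FBgn0267795), the fly FMNL-type formin, had no summit in the main list or in the thresholded list of either replicate. Its highest ranked peak, 3L 14055944, had a signal of 76.73 (rank 7829) and an IDR of 0.0411, and it passed only in the pooled list. The Frl stretch shown is the window of this peak, in which ATTGAT and ATCGAT overlap, 41 and 37 bp before the summit. A ranked peak of 74.37 lay 18 bp from the only Frl start and passed no threshold.

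form3 (FBgn0053556) codes for a formin of the INF2 type. It had no peak past any threshold, including that of the pooled list, although its 28480 bp make it longer than Frl and dia. A ranked peak 38 bp from its only start had a signal of 59.74 (rank 10435) with an IDR of 0.266. In replicate 2 it had 43.49, and in replicate 1 no ranked peak lay within 500 bp of the start.

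**Figure D3:**
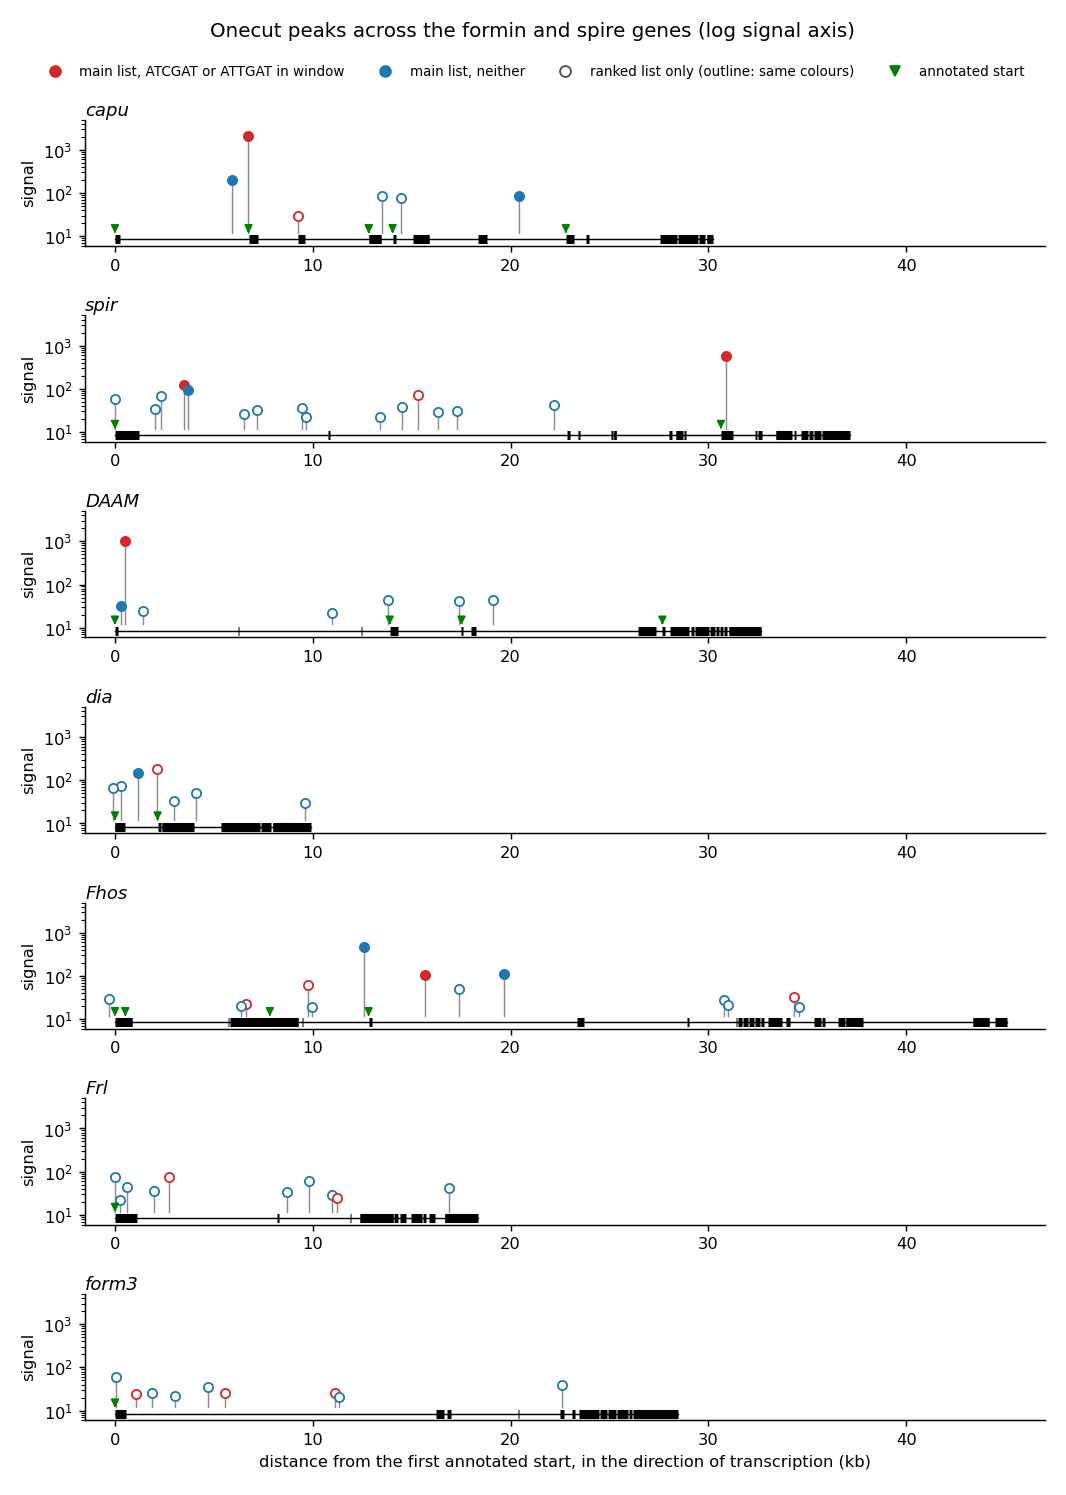
Peaks across the 7 genes, with distance from the first annotated start in kb on the horizontal axis, in the direction of transcription, and the deposited signal on a vertical log axis. Filled points are summits of the main list and open points are ranked peaks outside it, in red where ATCGAT or ATTGAT lies within 50 bp of the summit and in blue where neither does, triangles are annotated starts, and black boxes are exons. The tall points lie within 500 bp of the second capu start, the second spir start and the fourth Fhos start, and 519 bp from the first DAAM start.

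Across the 12 summits, 4 lay within 500 bp of an annotated start, 1 each at capu, spir, DAAM and Fhos, against 44.2% of all summits of the list. The other summits were in introns, and all 12 lay in an intron of at least 1 transcript and none in a coding exon. The higher DAAM summit, at 519 bp, lay just outside the limit, and the lower summit of the same interval was counted in its place. The 7 genes have 20 annotated starts, of which 4 had a summit of the main list within 500 bp, against 22.1% of all annotated starts of protein-coding genes, and 13 had a ranked peak, against 48.7%.

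In capu, spir and Fhos the highest summit was at a start well inside the gene, at 6752, 30632 and 12823 bp from the first start. This was counted after the values were seen. Of the 572 genes with starts over 1000 bp apart and their strongest summit within 500 bp of one of them, 38.6% had it over 1000 bp from the first start, while all 3 of these genes did. DAAM and dia did not enter this count, because their strongest summit lay over 500 bp from a start. That of DAAM missed the limit narrowly, at 519 bp from its first start, and would have counted against the pattern.

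The cores ATCGAT and ATTGAT were searched on both strands of a window reaching 50 bp to either side of each summit. At least 1 of them lay at 5 of the 12 summits, against 38.2% of all summits. ATCGAT was at 2, both the highest of their gene (capu and spir), against 21.2% of all summits, and ATTGAT at 3, at spir, DAAM and Fhos, against 19.1%. Of the 4 summits in the strongest 10%, 3 held a core and that of Fhos held none, against 62.5% with a core among all summits in the strongest 10%.

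Other motifs were searched in the same windows. The longer TATCGATA, known as a DREF element, was at none of the 12 and at 1.79% of all summits, and GGTCACACT, known as a core promoter motif, was at none and at 0.904%. GAGAG, part of the GAGA factor motif, was at 3 (the spir summit at its second start, the lower DAAM summit and the dia summit), against 15.3%. CACACAC was at 1, the higher DAAM summit, against 5.47%. The windows at the 12 summits were between 37.6% and 72.3% A or T, with a median of 56.0%, against a median of 58.4% over all summits.

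**Figure D4:**
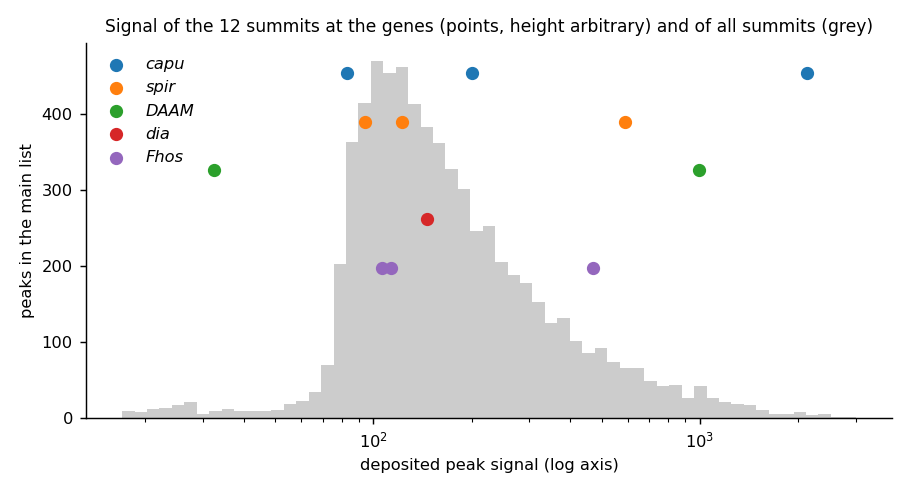
Deposited signal of the 12 summits at the formin and Spire genes (coloured points, height on the page arbitrary) over a histogram of all peaks in the main list (grey, number of peaks on the vertical axis), with signal on a log axis. The highest summits of capu, DAAM, spir and Fhos, at 2124, 991.0, 588.5 and 470.2, lie in the right tail, and the lower DAAM summit, at 32.46, lies left of the bulk.

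The replicates were compared peak by peak. Of the 12 summits, 8 had intervals that overlapped a thresholded peak of each replicate by at least 1 bp, against 62.2% of all peaks. Replicate 1 covered 8 and replicate 2 covered 11, and all 12 overlapped a ranked peak in both. Because intervals were compared, 1 peak could cover 2 summits, as at the spir pair in replicate 2 and at DAAM in replicate 1. The 4 not covered in replicate 1 were the capu summit at 3882430, the spir pair and the Fhos summit at 8773273, of which only the capu summit was also missing in replicate 2.

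Counted by gene, 5 of the 7 had a summit in the thresholded list of replicate 1, against 26.2% of all protein-coding genes, and 5 in that of replicate 2, against 28.6%. In the pooled list 6 of the 7 had one, against 32.3%, with Frl as the gene added. In the ranked list of both replicates all 7 did, against 56.3%. These shares come from the measure the genes were chosen with, and nothing is read from them.

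Below the threshold the 7 genes held many low peaks. The ranked list of both replicates had 68 summits at them, of which 56 were outside the main list, with signals between 18.89 and 185.9 and a median of 33.57. A core lay in the window of 11 of these 56, against 17.2% of all ranked summits outside the main list. The ranked density was 3.26 per 10 kb over the 7 genes, against 2.79 over all protein-coding genes. spir had the most, 16, followed by Fhos with 13 and Frl with 10, so Frl and form3, with 9, were not empty of ranked peaks.

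**Figure D5:**
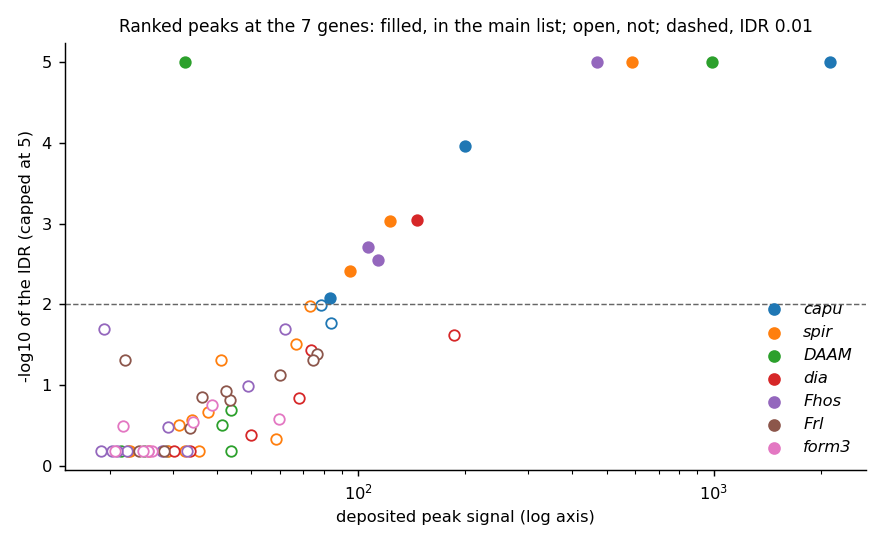
Each ranked peak at the 7 genes by its deposited signal (horizontal log axis) and the -log10 of its IDR (vertical axis, which ends at 5), coloured by gene, filled when in the main list and open when not. The dashed line is the threshold at an IDR of 0.01. The open dia point at a signal of 185.9 lies below the line although its signal is higher than that of 7 of the 12 filled points.

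The genes whose highest peak stood nearest to that of capu in rank, summed over the ranked lists of the 2 replicates and over 7117 genes ranked in both, were CG14442 (ranks 10 and 10), 14-3-3epsilon (ranks 8 and 11), and CG11050 and bchs, which tied (ranks 7 and 14, and 13 and 4). Their summed differences from capu were 6, 7, 9 and 9 ranks.

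Other genes of actin assembly were counted by the same rule, in lists drawn up with earlier results of these data known, beside the 31.3% of all protein-coding genes with a summit. The lists differ in gene length, with medians between 1588 bp for the Arp2/3 complex and 5005 bp for monomer- and filament-binding proteins, against 2166 bp for all genes, and their counts were not tested. Of 8 genes of the Arp2/3 complex, which nucleates branched filaments, 5 (62.5%) had a summit, none higher than Arp2 at 183.3 and Arp3 at 179.2. Of 9 nucleation-promoting factors, which switch that complex on, 6 (66.7%) had one, the highest at SCAR with 645.3 (rank 363) and Vrp1 with 395.6 (rank 828).

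Of 17 genes for monomer- and filament-binding proteins, 11 (64.7%) had a summit, against the same 31.3%. These 11 included fln, whose product is a protein of myosin filaments and not an actin assembly factor. The highest were at tsr, the fly cofilin, with 410.6 (rank 781), and in Lasp, with 2942 (rank 1), though the Lasp peak lies 921 bp from a Lasp start and nearer to a start of Dab. Of the 6 actin genes, only Act5C (16.7%) had any, with 4 summits and a highest signal of 505.0. A list of 7 genes drawn up for the oocyte and its polarity held osk, stau, didum, Rab11, mats, bcd and grk. These are not all direct partners of capu and spir. Of the 7, 3 (42.9%) had a summit, the highest at bcd with 246.9 and Rab11 with 230.1. Of the highest signals named for these lists, that in Lasp was above the 2124 of capu, and the others were below the 991.0 of DAAM.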

How the data were processed

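Onecut-eGFP was precipitated from whole embryos in 2 biological replicates, numbered by the labels, which form 1 group. Per the file headers (read-me texts), the authors made the lists by setting the replicate alignments against a control. Which aligner and caller were used, and how many reads, is not given in the sources used here. Each list gives the deposited signal per peak, on a scale not stated, the deposited score (a scaled IDR), the deposited -log10 q-value and, in ranked lists, the deposited -log10 IDR. In the ranked lists of the whole series, 4 signal columns of unnamed inputs were not used.

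Peaks off the arms, 8 in the main list, were left out. Genes came from Ensembl release 115 and sequence from Release 6, both in dm6 coordinates. Summits were assigned to every gene within 1000 bp upstream to the gene's end, so a summit can count for several genes. Promoter means within 500 bp of a protein-coding start, and motifs were searched within 50 bp of a summit. Scripts used Python 3.11.15, numpy 2.4.6 and pandas 2.3.3, and were tested on simulated data. No significance test was run: 2 replicates of 1 group allow no comparison of conditions.

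The genes, lists and motifs were chosen with earlier results of these data known. Named were the 7 genes, the 2 genes of highest signal in each actin list reported, genes with a start within 500 bp of a summit, and the 3 nearest to capu by rank. Act5C's count, Dab, fln and the full oocyte list were named after their values were seen. One of the actin lists is not reported here. Alternatives were the pooled list, each replicate alone, an IDR of 0.001, the stronger 50% of peaks, and other territories and windows. Counting each interval once was added after seeing the data.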

Additional observations from a re-analysis of the deposited data

How the results depend on the processing

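Over all alternatives, 35 of 40 values of the 4 main counts (genes with a summit, summits, promoter summits, summits with a core) stayed within 1.5 times the reported count. This band is wide and takes in the 18 summits of the pooled list, against 12 as reported. The other territories left all 4 counts as reported. Dropping the upstream stretch could not change them, since all 12 summits lay in introns. The stronger 50% of peaks left 5 of the 12 summits and 3 of the 5 with a core, and the pooled list gave 9 with a core. Promoter summits, 4 as reported, numbered 1 within 250 bp and 7 within 1000 bp. The number of genes with a summit was 4 to 6 of 7 under every alternative. At an IDR of 0.001, 8 summits were left. Without replicate 1 there were 11 summits at the 7 genes and without replicate 2 there were 10. For single genes, 15 values moved, among them spir with 1 summit, not 3, without replicate 2, and Fhos with 1, not 3, at an IDR of 0.001. The highest Fhos peak fell outside the strongest 10%, at 15.4%, without replicate 1, and that of spir, at 10.7%, without replicate 2. Counting each peak interval once gave 11 summits, 3 of them at promoters. The causes were not tested. No paired analysis was possible because the 2 replicates form 1 group. Depth is unknown, so for Frl, form3 and the weaker peaks a missing peak means only that none passed in these lists.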
